A study of Homo sapiens with 6 samples.

Results

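The nuclear-encoded genes of oxidative phosphorylation were followed in the human monocytic leukaemia line THP-1, with and without ruxolitinib, an inhibitor of the JAK1 and JAK2 kinases. Both groups had been differentiated to macrophages and given lipopolysaccharide (LPS) and ATP to bring about pyroptosis, a lytic inflammatory cell death. The 3 libraries labelled RUX+ came from cells that also received the drug. The 3 labelled RUX- came from cells that did not and are the control group. In the treatment field the drug appears as "Lukotinib", whereas the series title gives ruxolitinib. How much drug was used, for how long and what differentiated the cells is not given in the sources used here. Unstimulated cells were not analysed here, so neither group has a level before LPS and ATP beside it. Both groups are 1 cell line. The labels do not say whether libraries are separate cultures, and p-values then measure only how far these samples spread, which may be technical variation.

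Members were taken by symbol from the 61517 gene rows of the deposited count table. They were the NDUFA, NDUFB, NDUFC, NDUFS, NDUFV, UQCR and ATP5 genes, the genes starting COX4 to COX8, and CYC1, CYCS and the SDH subunit genes. The rule matched 273 symbols, of which 167 were pseudogenes, 6 were antisense or divergent transcripts and 9 had a mean below 1 CPM (the read count scaled to the library total). The remaining 91 genes are the members, and all 91 were among the 14051 genes tested. The prefixes also took in 8 NDUFAF genes, which encode assembly factors of complex I and no subunits, the ATP synthase inhibitor ATP5IF1, the paralogue UQCRHL and the readthrough transcript ATP5MF-PTCD1. NDUFA4, named for complex I, is counted with complex IV, to which its protein was later assigned.

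Just inside the minimum was ATP5MF-PTCD1, with a mean of 2.2 CPM, and just outside were NDUFC2-KCTD14 with 0.502 CPM and NDUFA4L2 with 0.361 CPM. COX6B2, a testis isoform, had 0.0157 CPM. The muscle isoforms COX6A2 and COX7A1, the lung isoform COX4I2, and COX7B2, COX8C and ATP5MGL had 0 counts in all 6 libraries, and 3 counts, the upper limit such a 0 allows, equal 0.122 to 0.169 CPM across the libraries (counting error only). The cells thus gave reads mainly for the widely expressed isoforms COX4I1, COX6A1, COX6B1 and COX7A2.

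Oxidative phosphorylation takes electrons from NADH through complex I and from succinate through complex II to ubiquinone, then through complex III and cytochrome c to oxygen at complex IV. Complexes I, III and IV pump protons out of the mitochondrial matrix, and complex V, the ATP synthase, uses their return to make ATP. Complexes I, III, IV and V each join nuclear-encoded subunits to a few made inside the mitochondrion, while complex II is nuclear-encoded throughout. In macrophages, stimulation with LPS is known to shift energy metabolism from respiration towards glycolysis.

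The promoters of 74 of the 91 members were found in RefSeq (GRCh38.p14; 250 bases before to 50 after the transcription start, 1 promoter per gene). NRF1, ETS and YY1 motifs, known from promoters of respiratory genes, were searched on both strands. The NRF1 motif (GCGCA, any base, then GCGC) was in 17 of 74 (23%), against 11.9% of the promoters of tested genes and 6.28% of all 27305 promoters. The ETS motif (CCGGAAG) was in 21 (28.4%; 19.8% of tested, 10.7% of all), and the YY1 motif (AAGATGG directly followed by CGG) in 7 (9.46%; 2.88% of tested, 1.28% of all). No motif contains another. A match describes the letters in the window and is not a measured binding site. Among the 31 matched members that rose with ruxolitinib by the test described next, 9 held the NRF1 motif, 10 the ETS motif and 1 the YY1 motif. Among the 42 that did not pass the test, 8, 11 and 6 did.

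Promoters of 4 members are shown because they set motif content beside response: NDUFB4 (chr3:120596086-120596385, plus strand) and UQCR11 (chr19:1605413-1605712, minus strand) belong to members that rose, SDHA (chr5:218070-218369, plus strand) to one that did not pass the test, and NDUFS8 (chr11:68030431-68030730, plus strand) to the one that fell. Capitals mark NRF1 and ETS matches, and each sequence runs 5′ to 3′.
NDUFB4: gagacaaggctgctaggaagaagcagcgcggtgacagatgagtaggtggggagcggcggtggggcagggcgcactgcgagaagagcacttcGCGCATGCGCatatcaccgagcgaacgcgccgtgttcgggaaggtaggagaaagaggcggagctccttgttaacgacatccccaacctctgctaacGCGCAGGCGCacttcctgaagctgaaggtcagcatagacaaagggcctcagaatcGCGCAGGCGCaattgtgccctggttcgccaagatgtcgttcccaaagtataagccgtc
UQCR11: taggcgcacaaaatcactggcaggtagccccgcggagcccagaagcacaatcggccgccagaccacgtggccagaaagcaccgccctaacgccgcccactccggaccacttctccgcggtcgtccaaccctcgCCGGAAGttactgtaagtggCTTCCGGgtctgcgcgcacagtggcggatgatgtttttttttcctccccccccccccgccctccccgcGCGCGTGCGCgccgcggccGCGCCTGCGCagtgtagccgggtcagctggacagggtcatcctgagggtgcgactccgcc
SDHA: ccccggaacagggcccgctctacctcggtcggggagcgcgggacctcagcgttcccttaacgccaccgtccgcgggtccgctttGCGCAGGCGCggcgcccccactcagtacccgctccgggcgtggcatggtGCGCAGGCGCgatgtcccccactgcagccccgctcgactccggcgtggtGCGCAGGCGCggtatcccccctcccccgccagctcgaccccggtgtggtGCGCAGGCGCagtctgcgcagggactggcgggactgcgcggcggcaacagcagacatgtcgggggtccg
NDUFS8: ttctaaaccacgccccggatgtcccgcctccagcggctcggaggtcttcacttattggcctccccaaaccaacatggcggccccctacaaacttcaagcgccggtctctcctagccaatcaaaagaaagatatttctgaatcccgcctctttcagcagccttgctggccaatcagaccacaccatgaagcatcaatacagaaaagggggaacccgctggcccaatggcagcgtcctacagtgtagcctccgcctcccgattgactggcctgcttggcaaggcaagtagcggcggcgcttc
NDUFB4 holds 3 NRF1 matches, UQCR11 2 NRF1 and 2 ETS matches, and SDHA 4 NRF1 matches starting at -166, -117, -68 and -19 from the transcription start. The NDUFS8 window holds none of the 3 motifs. Nor do the windows of NDUFC1, NDUFA2, NDUFS6 and COX7A2, which all rose. The promoters shown are thus not typical of their groups, and whether motif content went with response was not tested.

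Most respiratory-chain genes whose level changed with ruxolitinib rose, and each by a small amount. By edgeR's quasi-likelihood test, at an adjusted p threshold of 0.05, 39 of the 91 members rose, 1 fell and 51 did not pass. Over all tested genes 29.7% were called, 13.6% higher and 16.1% lower. The members' median log2 fold change, ruxolitinib over control, was 0.15 (quartiles 0.04 and 0.22, range -0.24 to 0.41), against -0.01 over all tested genes. The estimate was above 0 for 77 members and below 0 for 14. The 3 ruxolitinib libraries lay wholly above the 3 control libraries for 52 members and wholly below for 5, where 20.5% and 23.8% of all tested genes did so. With the labelled batch number as a block, 18 members rose and 0 fell (median 0.15), and 9.17% of all genes were called higher. Without both libraries of batch 1, 11 members rose and 0 fell (median 0.17; 5.85% of all genes higher). Without batch 2, 27 rose and 4 fell, while the calls over all genes increased from 4175 to 5034 (18.1% higher). Without control replicate 3, 23 rose and 2 fell (10.7% of all genes higher), and without ruxolitinib replicate 1, 21 rose and 0 fell (9.18%). Scaled by library totals alone, 29 rose and 5 fell (11.2%).

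Summed over the members, the level was 7158, 6809 and 6984 CPM in control replicates 1 to 3 and 7637, 8042 and 7383 CPM with ruxolitinib. Every ruxolitinib sum lay above every control sum, and the means were 6984 ± 175 and 7687 ± 332 CPM (SD, n = 3 each), a ratio of 1.1. The sums over all tested genes were also apart between groups (ratio 1.02). Each of those sums is set by the scaling (TMM) factor of its library alone, so they are not a measured difference in level. They were 975972 to 998935 CPM in control and 1008044 to 1019437 CPM with ruxolitinib. Levels are CPM over TMM-scaled totals, and in such bulk samples fewer cells of a kind and less RNA per cell cannot be told apart.

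**Figure D1:**
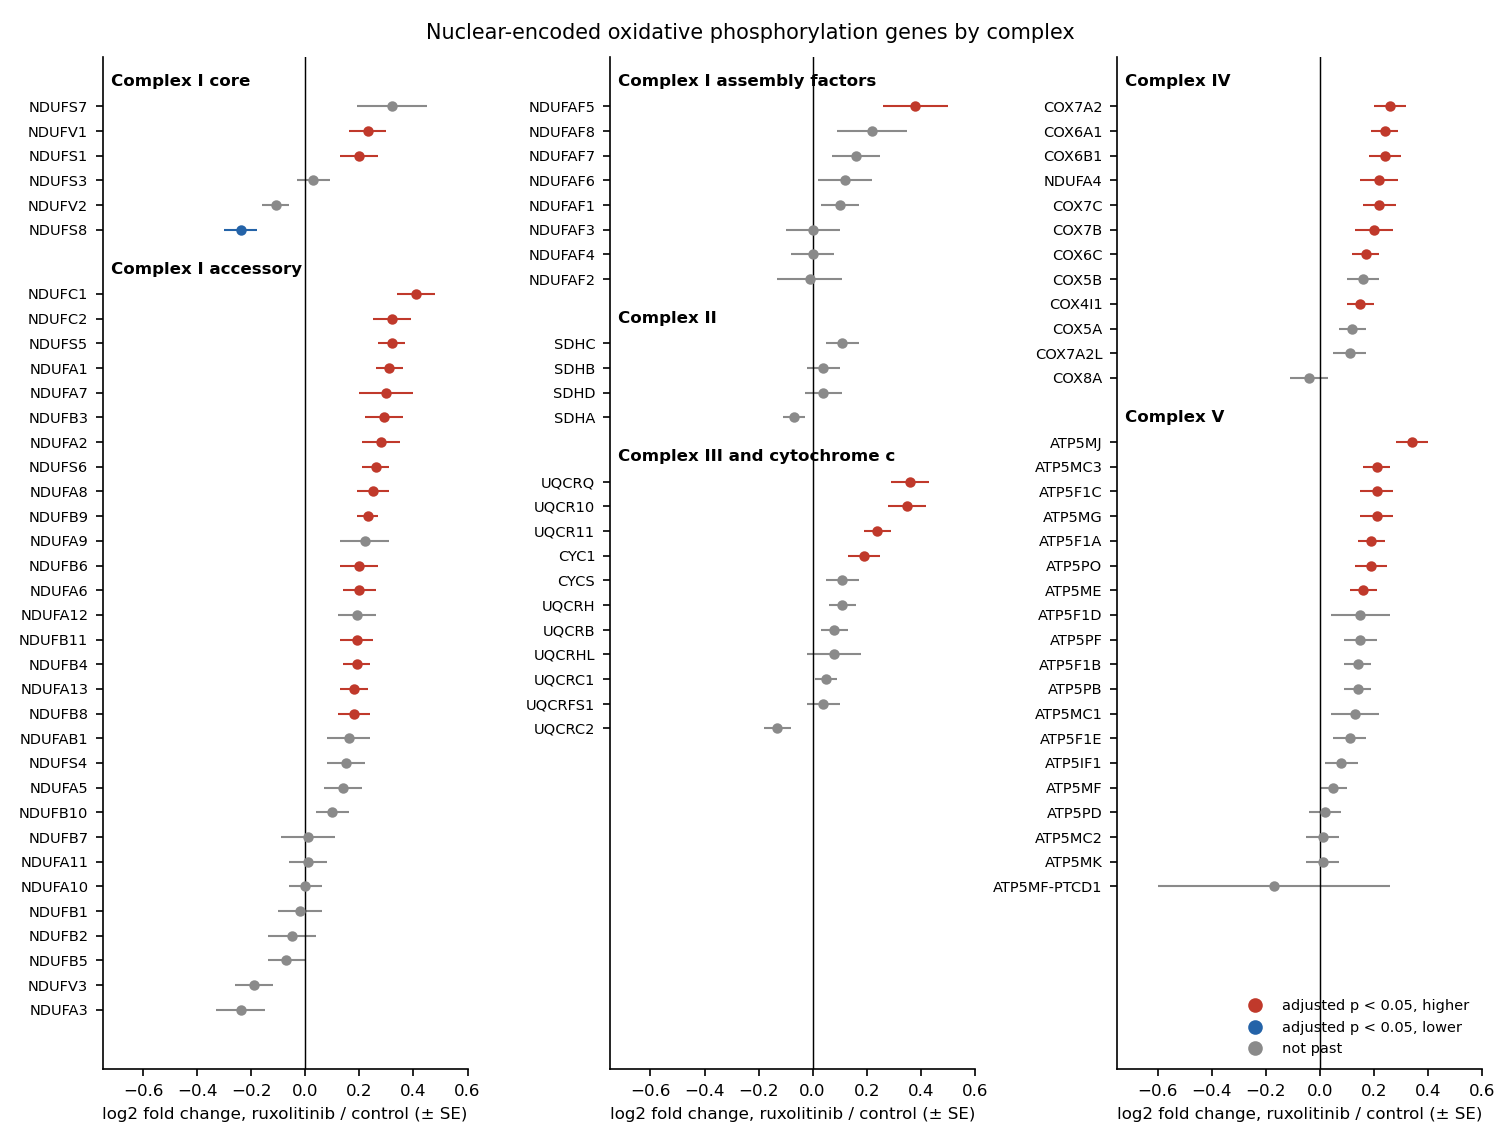
Log2 fold change (ruxolitinib over control, x axis) of 90 of the members, grouped by complex; points are edgeR estimates and bars their standard errors, in red for 38 that rose, blue for the 1 that fell and grey for the 51 that did not pass. Most points lie right of 0, while the 4 complex II genes sit close to 0.

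Complex I is the entry point for electrons from NADH, and its 7 nuclear-encoded core subunits carry the flavin, the iron-sulphur clusters and the ubiquinone site. Of these 3 rose, among them NDUFV1 and NDUFS1, 1 fell, NDUFS8, and 3 did not pass, among them NDUFS7 and NDUFV2 (median 0.20). NDUFV1, the flavin-binding subunit that oxidizes NADH, went from 29, 32.2 and 29.2 CPM in control to 36.2, 34.4 and 35.9 CPM with ruxolitinib. Every ruxolitinib library was above every control library (log2 fold change 0.23 ± 0.07, SE; adjusted p = 0.0175).

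NDUFS1, the large iron-sulphur subunit, measured 47.8, 46.1 and 51.8 CPM in control and 55.7, 60.6 and 51.5 CPM with ruxolitinib (0.20 ± 0.07; adjusted p = 0.0473). Its groups overlapped, since ruxolitinib replicate 3 lay below control replicate 3. NDUFS8, which carries iron-sulphur clusters on the path to ubiquinone, was the only member that passed the test downward. It measured 33.5, 34.1 and 32.6 CPM in control and 26.9, 29.7 and 28.1 CPM with ruxolitinib, with no overlap (-0.24 ± 0.06; adjusted p = 0.0138). NDUFV2, the iron-sulphur partner of NDUFV1, had an estimate of -0.11 ± 0.05 (adjusted p = 0.126), and NDUFS7, at 5.08 to 5.94 CPM in control and 6.41 to 6.93 CPM with ruxolitinib, one of 0.32 ± 0.13 (adjusted p = 0.0771).

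The core calls depended on the libraries kept and, for NDUFS1 and NDUFS8, on the test or scaling. With all libraries, NDUFS1 did not pass with DESeq2 (adjusted p = 0.0781), limma-voom (0.0634) or library totals alone (0.0889). NDUFS8 did not pass with DESeq2 (0.0902). With the batch block, adjusted p was 0.127 for NDUFS1, 0.0645 for NDUFV1 and 0.0504 for NDUFS8, and without batch 1 it was 0.278, 0.233 and 0.198. The call of NDUFS8 was lost without control replicate 1 (0.0568) or ruxolitinib replicate 1 (0.0832). That of NDUFV1 was also lost without batch 3 (0.128), control replicate 1 or 3 (0.061 and 0.0537) or ruxolitinib replicate 1 (0.0765), that of NDUFS8 without batch 3 (0.0667), and that of NDUFS1 without batch 2 (0.231) or replicate 1 or 2 of either group (0.121 to 0.148). NDUFV2 passed without batch 2 (-0.16, adjusted p = 0.00928) and with library totals alone (-0.14, 0.0288), and NDUFS7 without control replicate 2 (0.40, 0.0446).

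The accessory subunits of complex I surround its core and are needed for its assembly and stability. Of 30, 16 rose, 0 fell and 14 did not pass (median 0.19). The smallest adjusted p among them belonged to NDUFS5, NDUFA1 and NDUFC1. NDUFS5 measured 95.4, 95.6 and 98.4 CPM in control and 123, 125 and 114 CPM with ruxolitinib. The lowest treated library stood well above the highest control (0.32 ± 0.05; adjusted p = 4.7e-04). NDUFA1, encoded on the X chromosome, went from 65.5, 71 and 68.1 CPM to 84.1, 88.3 and 81.6 CPM, again without overlap (0.31 ± 0.05; adjusted p = 9.0e-04).

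NDUFC1 had the largest estimate among the members that passed. Its levels were 34.5, 30.1 and 29.2 CPM in control and 40.9, 43.4 and 39.6 CPM with ruxolitinib, with no overlap (0.41 ± 0.07; adjusted p = 0.00133). NDUFC2, its partner in the membrane arm, rose from 63.2, 56.9 and 62.4 CPM to 76, 81.3 and 69.7 CPM (0.32 ± 0.07; adjusted p = 0.00345). NDUFS6, a zinc-binding subunit of the peripheral arm, rose from 73.2, 71.2 and 71.1 CPM to 84.4, 89.1 and 84.9 CPM (0.26 ± 0.05; adjusted p = 0.00148). NDUFA2 rose from 41.7, 38.1 and 39 CPM to 45.5, 53.3 and 45.2 CPM (0.28 ± 0.07; adjusted p = 0.0128). In all of these the groups were apart, and ruxolitinib replicate 2 was the highest library.

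NDUFB9, a membrane-arm subunit, measured 253, 248 and 240.3 CPM in control and 286, 299 and 284 CPM with ruxolitinib (0.23 ± 0.04; adjusted p = 0.00209, and 0.0539 without batch 1). NDUFB4, whose promoter is shown above, measured 173, 158 and 157 CPM in control and 186, 188 and 183 CPM with ruxolitinib (0.19 ± 0.05; adjusted p = 0.0113). In both genes the groups were apart. The NDUFB4 call was lost with the batch block (0.0522), without batch 1 (0.0719) or 3 (0.0765), and without control replicate 3 (0.0626) or ruxolitinib replicate 1 (0.0536). NDUFB6 passed closest to the threshold (0.20 ± 0.07; adjusted p = 0.0478) and was lost in 11 of 19 alternative settings (adjusted p 0.0548 to 0.199), with the batch block (0.111), without any 1 of the 3 batches (0.0698 to 0.199), and without control replicate 2 or 3 or ruxolitinib replicate 1 or 2 (0.112 to 0.143).

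The accessory subunits NDUFV3 of the NADH-oxidizing module and NDUFA3 of the membrane arm had non-overlapping lower levels without passing the test. NDUFV3 measured 29.5, 27.7 and 30.6 CPM in control and 25.6, 26.8 and 24.3 CPM with ruxolitinib (-0.19 ± 0.07; adjusted p = 0.0555). NDUFA3 measured 22.1, 20.4 and 17.7 CPM and 17.3, 17.3 and 16.2 CPM (-0.24 ± 0.09; adjusted p = 0.0653). NDUFV3 passed without batch 2 (-0.27, 0.00626), control replicate 2 (-0.24, 0.0285) or ruxolitinib replicate 2 (-0.23, 0.045), NDUFA3 without control replicate 3 (-0.31, 0.0324), and both with library totals alone (0.0237 and 0.0388). With the batch block, 9 of the 30 accessory subunits rose.

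Of the 8 NDUFAF assembly factors, which build complex I and leave it, 1 rose and 7 did not pass (median 0.11). The share that rose, 12.5%, was near the 13.6% over all tested genes. NDUFAF5, a hydroxylase that acts on NDUFS7, measured 6.7, 6.73 and 6.04 CPM in control and 9.03, 8.2 and 8.16 CPM with ruxolitinib, without overlap (0.38 ± 0.12; adjusted p = 0.026). The call was lost with the batch block (0.0723), with DESeq2 (0.105), without batch 1 (0.199) or 3 (0.124), and without control replicate 3 (0.0835) or ruxolitinib replicate 1 (0.113).

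**Figure D2:**
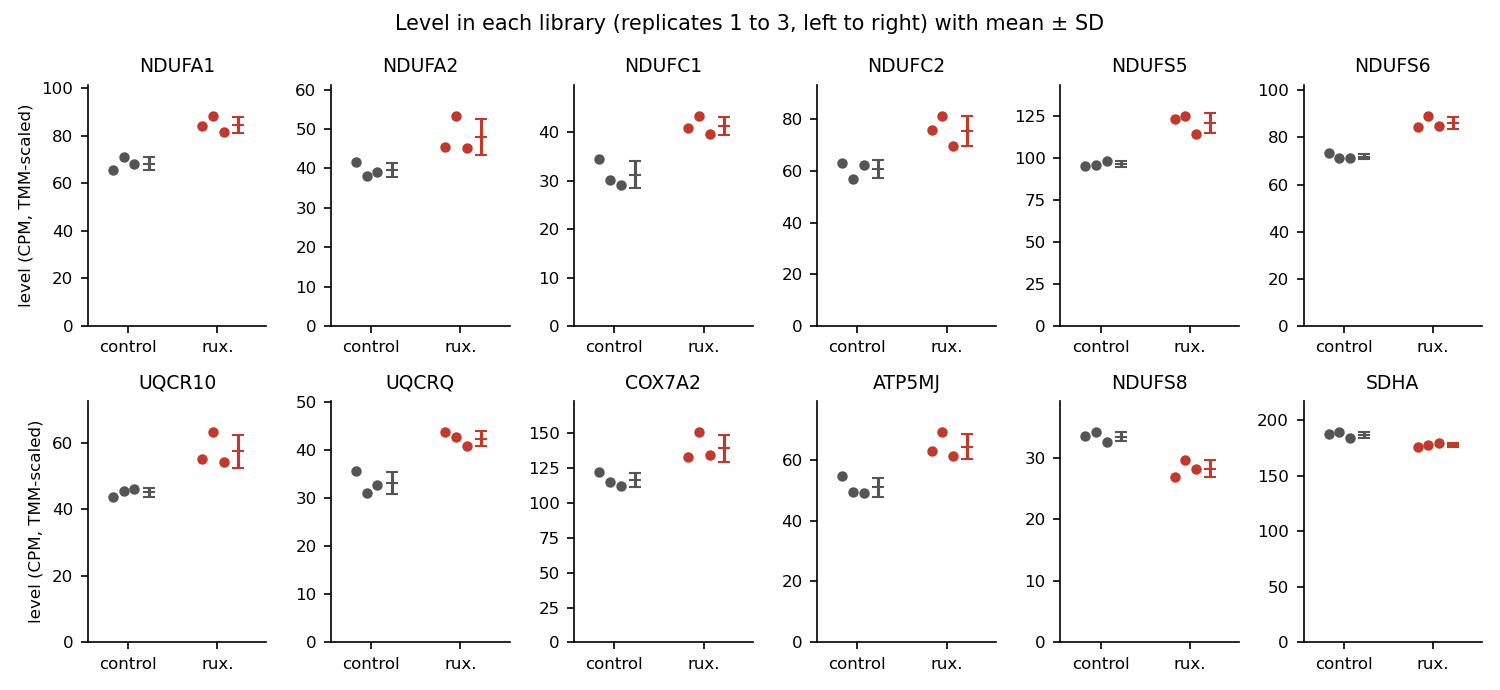
Level in CPM over TMM-scaled totals (y axis, from 0) of 12 members in each library, control in grey and ruxolitinib in red, with the mean and SD of 3 libraries; shown are the 10 members that rose in the main fit and in all 19 alternative settings, then NDUFS8 and SDHA. In the first 10 panels every ruxolitinib point lies above every control point; in the last 2 every one lies below.

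Complex II, succinate dehydrogenase, is both a citric acid cycle enzyme and an entry point for electrons. None of its 4 subunits passed (0 of 4 by edgeR, with 0 at an unadjusted p under 0.05, and 0 by DESeq2 and by limma-voom), and their median was 0.04. SDHA, the flavoprotein that oxidizes succinate, measured 188, 189 and 184 CPM in control and 176, 178 and 179.9 CPM with ruxolitinib. The ruxolitinib libraries were all lower, by a small amount (-0.07 ± 0.04; adjusted p = 0.231). The iron-sulphur subunit SDHB had an estimate of 0.04 ± 0.06 (adjusted p = 0.659), and the membrane anchors SDHC and SDHD 0.11 ± 0.06 (0.209) and 0.04 ± 0.07 (0.693). Without ruxolitinib replicate 2 the SDHC estimate was 0.03 and that of SDHB -0.01, and that of SDHD was -0.05 without batch 2, and -0.01 (without control replicate 2) to 0.13 without 1 library. Whether complex II differed from the other complexes was not tested.

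Complex III passes electrons from ubiquinol to cytochrome c. Of its 10 genes and cytochrome c, 4 rose, 0 fell and 7 did not pass (median 0.11). Those that rose were the small subunits UQCRQ, UQCR10 and UQCR11 and the haem-bearing CYC1, cytochrome c1. The small subunits UQCRB (0.08 ± 0.05; adjusted p = 0.261) and UQCRH (0.11 ± 0.05; 0.094) did not pass. UQCRH passed without ruxolitinib replicate 3 (0.15, 0.0455) and with upper-quartile factors (0.15, 0.036). UQCRQ measured 35.6, 31.2 and 32.8 CPM in control and 43.7, 42.8 and 40.8 CPM with ruxolitinib (0.36 ± 0.07; adjusted p = 0.00146). UQCR10 went from 43.7, 45.4 and 46.2 CPM to 55, 63.1 and 54.1 CPM (0.35 ± 0.07; adjusted p = 0.00207). UQCR11 went from 53.6, 54.6 and 55.3 CPM to 65.3, 66.4 and 61.7 CPM (0.24 ± 0.05; adjusted p = 0.00439, and 0.129 without batch 1). None of these 3 overlapped between groups.

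CYC1 measured 57.8, 58.9 and 50.5 CPM in control and 62.5, 63.8 and 63.7 CPM with ruxolitinib, also apart (0.19 ± 0.06; adjusted p = 0.0452). Its control replicate 3 stood below the other two, and the call was lost in 10 of 19 alternatives, with the batch block (0.0978), without batch 1 (0.166) or 3 (0.253), control replicate 3 (0.15) or ruxolitinib replicate 1, 2 or 3 (0.0758 to 0.106). The core protein UQCRC1 (0.05 ± 0.04; adjusted p = 0.45), the Rieske iron-sulphur protein UQCRFS1 (0.04 ± 0.06; 0.63) and cytochrome c itself, CYCS (0.11 ± 0.06; 0.184), did not pass. The second core protein, UQCRC2, had lower levels without overlap, 97.3, 93.4 and 95.6 CPM against 87.5, 89.6 and 85 CPM (-0.13 ± 0.05; adjusted p = 0.0609). It passed without batch 2 (-0.16, adjusted p = 0.0146) and with library totals alone (-0.16, 0.0137), CYCS passed without ruxolitinib replicate 3 (0.048), and the UQCRFS1 estimate was -0.01 without batch 2 or without ruxolitinib replicate 2. UQCRH and UQCRHL have near-identical sequences, so how reads were divided between them is uncertain.

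Complex IV, cytochrome c oxidase, reduces oxygen to water. Of its 12 nuclear-encoded genes, 8 rose, 0 fell and 4 did not pass (median 0.19). COX7A2 measured 122, 115 and 112 CPM in control and 133, 150.4 and 134 CPM with ruxolitinib (0.26 ± 0.06; adjusted p = 0.00491). COX6A1 went from 122, 119.7 and 117 CPM to 138, 149.6 and 136 CPM (0.24 ± 0.05; adjusted p = 0.00311, and 0.0541 without batch 1). COX6B1, on the side that docks cytochrome c, went from 86.1, 83.1 and 83.2 CPM to 100.2, 105 and 92.1 CPM (0.24 ± 0.06; adjusted p = 0.00699, and 0.101 without batch 1). In all 3 the groups were apart, with ruxolitinib replicate 2 the highest.

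COX4I1, the ubiquitous isoform of a regulatory subunit, measured 225, 209.7 and 224 CPM in control and 243, 250 and 240 CPM with ruxolitinib (0.15 ± 0.05; adjusted p = 0.0235). NDUFA4 measured 103, 95.2 and 107 CPM and 120.2, 128 and 108 CPM (0.22 ± 0.07; adjusted p = 0.0279). Both were apart between groups, NDUFA4 only narrowly in replicate 3. With the batch block the adjusted p was 0.106 for COX4I1 and 0.0928 for NDUFA4. The COX4I1 call was also lost without any 1 of the 3 batches (0.0616 to 0.183), without any 1 control library (0.0532 to 0.0977) and without ruxolitinib replicate 1 (0.0799). That of NDUFA4 was lost without batch 1 (0.207) or 2 (0.0869) and without replicate 1 or 2 of either group (0.0663 to 0.101). COX5A (0.12 ± 0.05; adjusted p = 0.0955), COX5B (0.16 ± 0.06; 0.0551) and the supercomplex factor COX7A2L (0.11 ± 0.06; 0.184) did not pass, although COX5B passed without ruxolitinib replicate 3 (0.0267). Scaled by upper-quartile factors, COX5A (0.037) and COX5B (0.0236) passed. With the batch block, 3 complex IV genes rose.

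Complex V couples the proton flow to ATP synthesis. Of its 19 genes, 7 rose, 0 fell and 12 did not pass (median 0.14). By module, 2 of the 5 genes of the catalytic head and central stalk rose and 1 of the 3 genes of the proton-carrying c ring. In the peripheral stalk 1 of 4 rose, and of the small membrane subunits 3 of 5. With the batch block these counts were, in the same order, 0, 1, 0 and 1, where 9.17% of all genes were called higher. Whether the modules differed was not tested. ATP5MJ, one of these small membrane subunits, measured 54.5, 49.3 and 49 CPM in control and 62.8, 68.9 and 61.1 CPM with ruxolitinib, without overlap (0.34 ± 0.06; adjusted p = 0.00198). The catalytic-head subunit alpha, ATP5F1A, measured 207, 192 and 208 CPM and 231, 239 and 224 CPM, also apart (0.19 ± 0.05; adjusted p = 0.0101). Its adjusted p was 0.0599 with the batch block and 0.127 without batch 1.

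The catalytic subunit beta, ATP5F1B, was just short of the threshold, at 331, 314 and 339 CPM in control and 366, 373 and 343 CPM with ruxolitinib (0.14 ± 0.05; adjusted p = 0.052). Its groups did not overlap, and it passed without ruxolitinib replicate 3 (0.0233) or batch 3 (0.037) and with upper-quartile factors (0.0199). ATP5PB of the peripheral stalk was similarly placed (0.14 ± 0.05; adjusted p = 0.051; 0.0419 without ruxolitinib replicate 3 and 0.0201 with upper-quartile factors).

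The c ring is made from 1 mature protein encoded by 3 genes. ATP5MC3 measured 80.6, 79.9 and 78.2 CPM in control and 91.3, 93.7 and 90.2 CPM with ruxolitinib (0.21 ± 0.05; adjusted p = 0.00543, and 0.106 without batch 1). ATP5MC1 (0.13 ± 0.09; 0.314) and ATP5MC2 (0.01 ± 0.06; 0.957) did not pass, and the difference between the 3 genes was not tested. The ATP5MC2 estimate was -0.05 without control replicate 2, -0.03 without ruxolitinib replicate 2 and -0.08 without batch 2. ATP5IF1, the inhibitor of reverse ATP hydrolysis, did not pass (0.08 ± 0.06; adjusted p = 0.335). The readthrough ATP5MF-PTCD1 varied between 1.02 and 3.43 CPM with mixed groups (-0.17 ± 0.43; adjusted p = 0.809), and its estimate was 0.58 without batch 2, 0.25 without control replicate 2 and 0.15 without ruxolitinib replicate 2. With the batch block, 2 complex V genes rose.

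The 13 subunits encoded in the mitochondrial genome, partners of the nuclear-encoded subunits in complexes I, III, IV and V, gave 0 calls by edgeR, with 0 at an unadjusted p under 0.05 and 0 by DESeq2 and limma-voom (median -0.27). Their summed level was 46436, 42923 and 41000 CPM in control and 37371, 26942 and 50567 CPM with ruxolitinib. Ruxolitinib replicate 2 was the lowest of the 6 libraries and replicate 3 the highest, so the groups overlapped widely. MT-ND4 of complex I, for example, measured 8668, 7932 and 7377 CPM in control and 6344, 4186 and 8838 CPM with ruxolitinib (-0.31 ± 0.30; adjusted p = 0.516). The ratio of the mitochondrially encoded to the nuclear-encoded sum was 6.49, 6.3 and 5.87 in control and 4.89, 3.35 and 6.85 with ruxolitinib. The same ruxolitinib replicate 2 had the highest nuclear-encoded sum and replicate 3 the lowest of its group. With the mitochondrially encoded genes removed before scaling, 38 members rose and 1 fell.

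**Figure D3:**
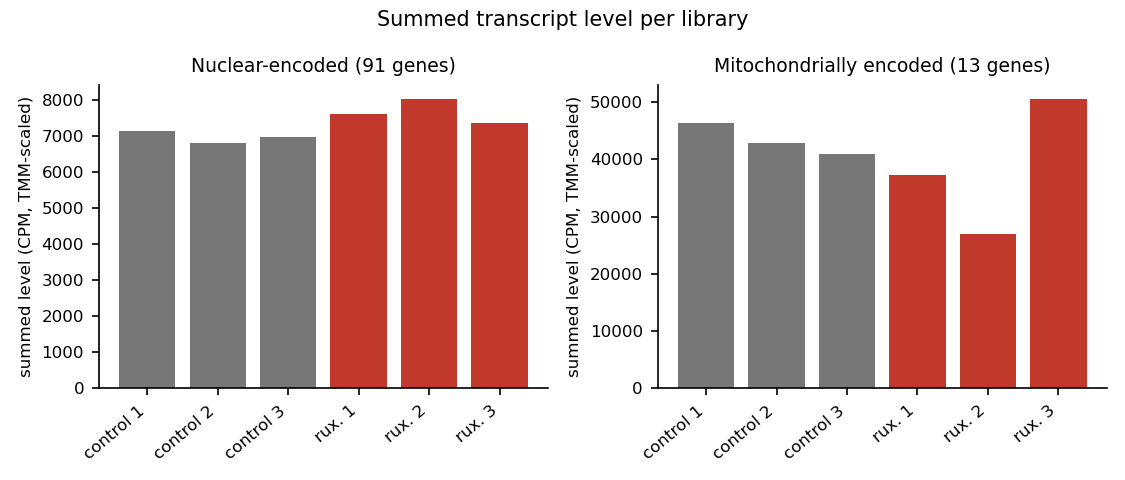
Summed level in CPM over TMM-scaled totals (y axes, from 0, on different scales) of the 91 nuclear-encoded members (left) and the 13 mitochondrially encoded subunits (right), 1 bar per library. The nuclear-encoded sums are 6809 to 7158 CPM in control and 7383 to 8042 CPM with ruxolitinib, while the mitochondrially encoded sums overlap between groups.

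Other genes of the pathway were taken as 5 lists of related function and are described by their counts. Over all tested genes, 13.6% rose and 16.1% fell. Pyruvate oxidation and the citric acid cycle feed the chain with NADH and succinate. Of 26 tested genes of these, 11 (42.3%) rose and 1 (3.85%) fell (median 0.17). Those with the smallest adjusted p were PDK3, a kinase that inhibits pyruvate dehydrogenase (control 11.6, 11.1 and 13.8 CPM, ruxolitinib 20.1, 20.8 and 21.2 CPM, 0.77 ± 0.09; adjusted p = 7.6e-05), and MPC2, a subunit of the mitochondrial pyruvate carrier (0.42 ± 0.05; 9.4e-05). SUCLG2, the GTP-forming subunit of succinyl-CoA ligase, fell (-0.69 ± 0.09; 1.1e-04). Of 13 carriers of adenine nucleotides, phosphate and protons, 4 (30.8%) rose and 1 (7.69%) fell. SLC25A6, an ADP/ATP exchanger, rose (0.44 ± 0.04; 1.2e-05), as did the phosphate carrier SLC25A3 (0.31 ± 0.04; 1.6e-04). The uncoupling protein UCP2 fell, from 13.6, 14.1 and 16.1 CPM to 5.41, 4.07 and 6.87 CPM (-1.42 ± 0.16; adjusted p = 6.9e-05).

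Of 49 other assembly factors of the complexes, 8 (16.3%) rose and 4 (8.16%) fell (median 0.03). The share called in either direction was 24.5%, near the 29.7% over all tested genes. The complex IV factors COA5 (0.45 ± 0.08; adjusted p = 9.0e-04) and COX16 (0.42 ± 0.08; 0.00252) rose, and CMC1 of complex IV (-0.34 ± 0.07; 0.00229) and UQCC2 of complex III (-0.30 ± 0.07; 0.0083) fell. The UQCC2 call was lost without batch 1 (0.173), control replicate 1 (0.0531) or ruxolitinib replicate 1 (0.0502). Of 21 genes of ubiquinone synthesis and other electron entry, 2 (9.52%) rose and 4 (19%) fell (median -0.07). Their share called, 28.6%, was also near that over all tested genes. COQ10A, a ubiquinone-binding protein (0.61 ± 0.09; 3.3e-04), and the methyltransferase COQ3 (0.58 ± 0.15; 0.0112, and 0.147 without batch 3) rose, while the glycerol phosphate dehydrogenase GPD2 (-0.56 ± 0.07; 6.7e-05) and the prenyltransferase COQ2 (-0.45 ± 0.08; 0.00115) fell.

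Of 23 regulators of mitochondrial biogenesis and transcription, 1 (4.35%) rose and 5 (21.7%) fell (median -0.05). The share called was 26.1%, near the 29.7% over all tested genes. GABPB1, a partner of the ETS factor GABPA, rose (0.34 ± 0.06; adjusted p = 0.00169). GABPB2, a second such partner (-0.70 ± 0.09; 1.6e-04), and PPARGC1B, a coactivator of respiratory genes (-0.69 ± 0.13; 0.00201), fell. Of 78 mitochondrial ribosomal protein genes 9 (11.5%) rose and 7 (8.97%) fell (median 0.04). Among 78 cytosolic ribosomal protein genes 70 (89.7%) rose and 2 (2.56%) fell (median 0.36).

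**Figure D4:**
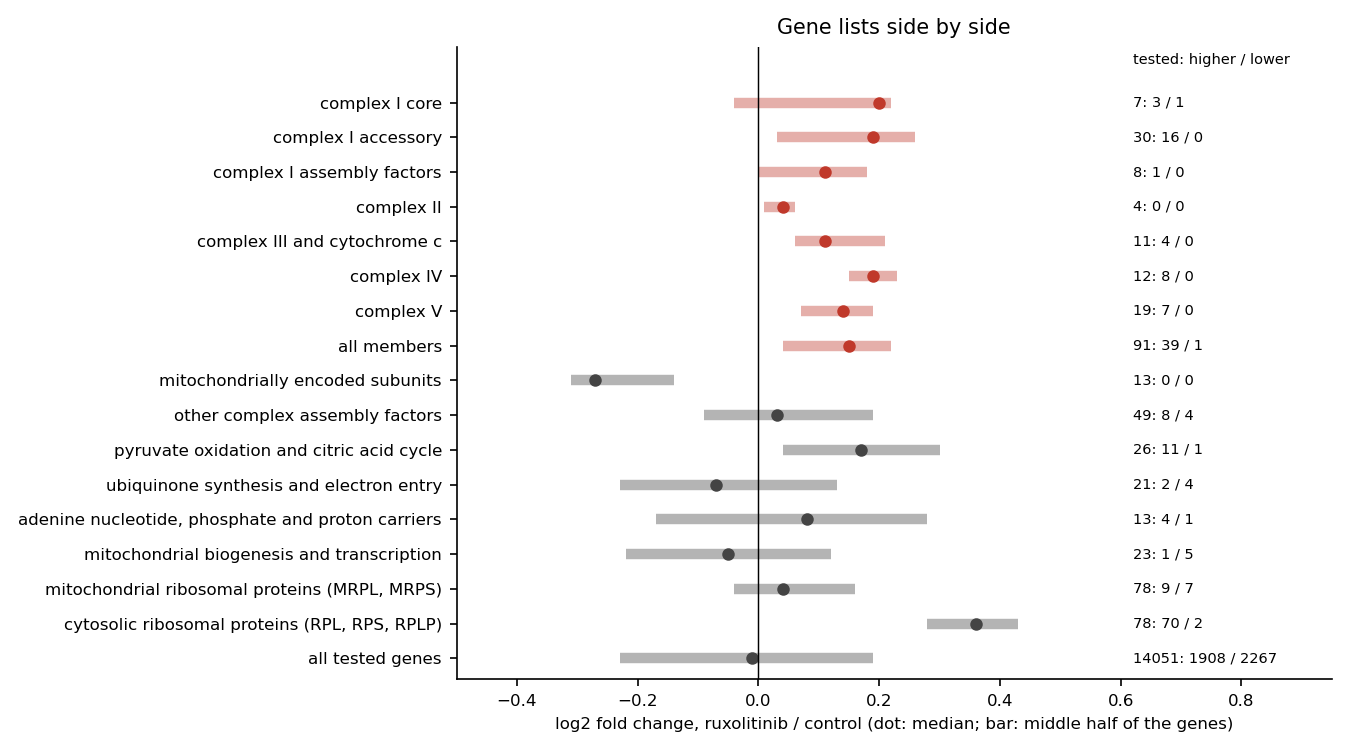
Median (dot) and lower to upper quartile (bar) of the log2 fold changes, ruxolitinib over control (x axis), for each complex and for the lists set beside them, with the number tested and the calls in each direction. The members' median is 0.15, between those of the mitochondrial (0.04) and the cytosolic (0.36) ribosomal protein genes.

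Several features of the libraries moved with the groups or touch single members. All 10 monocyte and macrophage markers had a mean of at least 1 CPM, and their sum was 2979 to 2990 CPM in control and 1745 to 1820 CPM with ruxolitinib. CD68, CSF1R and 7 others of them fell and LYZ rose, and their part in the members' results was not tested. The T cell genes CD3D, CD3E and CD3G were at 0 in all libraries. The summed level of 4 interferon-stimulated genes, IFI44L, IFIT1, OAS1 and MX1, which JAK kinases drive, was 701 to 724 CPM in control and 6.82 to 8.09 CPM with ruxolitinib. The members' transcripts are short, with a median length of 958 bases against 2767 over tested genes. In the range over 500 to 750 bases, which holds 27 members, their median was 0.16 against -0.01 for all 668 tested genes of that length, and over 750 to 1000 bases it was 0.18 for 18 members against 0.02 for 644 genes. Up to 500 bases it was 0.07 for 4 members and 0.07 for all 211 genes. In the 4 ranges above 1000 bases the members' medians were 0.11 to 0.20 and those of all genes -0.06 to 0.02.

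Whether the counting used strand is not given in the sources used here, and 37 members have an exon overlapping a gene on the other strand. For 23 of these that gene exceeded 10% of the member's level. NDUFS1 overlaps EEF1B2 (188 CPM; 0.42, adjusted p = 1.9e-04), NDUFA2 overlaps IK (168 CPM; 0.15, 0.0456), and NDUFA7 (0.30 ± 0.10; 0.041) overlaps RPS28 (120 CPM; 0.18, 0.0336). NDUFB9 overlaps MTSS1, which fell (461 CPM; -0.51, 2.4e-06). The NDUFA7 call was lost with the batch block (0.0963), without batch 1 (0.143) or 3 (0.225), and without replicate 1 or 3 of control or 2 or 3 of ruxolitinib (0.0935 to 0.114). Without strand, reads of such pairs cannot be told apart.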

How the data were processed

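RNA from 3 control and 3 ruxolitinib libraries of THP-1 cells was enriched with oligo-dT beads, per the labels' protocols. The authors deposited 1 table of raw read counts, whole numbers for each gene. Genome build hg38 is named per the submitters' processing notes. Aligner, counter, annotation release and strand: not given in the sources used here. Totals were 17757595, 24533979 and 22780991 counts in control replicates 1 to 3 and 19253534, 19041988 and 18796476 with ruxolitinib.

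Counts were tested with edgeR 4.0.16 in R 4.3.3 (glmQLFit, robust, and glmQLFTest; TMM factors; filterByExpr at its minimum count, 10, and minimum total, 15). P-values were adjusted over the 14051 tested genes by the Benjamini-Hochberg method, and every adjusted p-value is from this test unless another setting is named. Standard errors (SE) were derived from the same test, as the absolute log2 fold change divided by the square root of its F statistic. Membership used CPM over plain totals. Lengths and overlaps came from GENCODE 29 (GRCh38).

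Members and lists were chosen with earlier results of these data known. Named genes were, per complex, up to 3 members with the smallest adjusted p in each direction, signature subunits, isoform sets, the members nearest the thresholds and, from each related list, up to 2 per direction. NDUFA2, NDUFA3, NDUFA7, NDUFB4, NDUFB9, NDUFC2, NDUFS6, NDUFS7, NDUFV2, NDUFV3, UQCRB, UQCRC2, UQCRH, MT-ND4 and the overlapping genes were chosen with their values known. A gene that met the rule is not reported here. By the labels, 1 library of each group carries each batch number, which pairs them. Over genes, how far the 2 libraries of a batch departed from their groups' means correlated at -0.02, -0.19 and -0.1. Alternatives were the batch block, other scalings and filters, DESeq2 1.42.0, limma-voom (limma 3.58.1), removal of mitochondrially encoded or the 10 most abundant genes, and leaving out libraries or batches. On simulated counts of 13811 genes, the test recovered 36.2% of genes changed 1.25-fold and 66% of those changed 1.5-fold. Unchanged genes made up 4.76% of its calls. Far fewer genes were changed in the simulation than the 29.7% called in the data, so these rates may not carry over. Its smallest change, 1.25-fold, was larger than the members' median log2 fold change of 0.15.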

Additional observations from a re-analysis of the deposited data

How the results depend on the processing

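The split of 39 members higher against 1 lower kept its direction in all 19 alternatives, but the numbers called changed. The members' median log2 fold change was 0.15 as reported, 0.15 with the batch block and 0.17 without batch 1. Over the alternatives it ran from 0.11 (without batch 2) to 0.19 (upper-quartile factors). Without each single library in turn, 21 to 43 members were higher and 0 to 2 lower, the fewest higher without ruxolitinib replicate 1. In these omissions 9.18% (without ruxolitinib replicate 1) to 14.7% (without control replicate 2) of all genes were higher. Over all genes, 13.6% were higher with the settings as reported. With the replicate block by batch, 18 members were higher and 0 lower (9.17% of all genes higher). Without batch 1, 11 were higher and 0 lower, and the calls over all genes fell to 1983 (840 higher, 1143 lower; 5.85% of all genes higher). Without batch 2, 27 were higher and 4 lower (median 0.11; 18.1% of all genes), and without batch 3, 27 and 0 (9.33%). DESeq2 gave 30 and 0 (11.4% of all genes higher), library totals alone 29 and 5 (11.2%), the filter of at least 1 CPM in 3 libraries 41 and 2 (15%), and upper-quartile factors 46 and 1 (16.5%). The 10 members NDUFA1, NDUFA2, NDUFC1, NDUFC2, NDUFS5, NDUFS6, UQCR10, UQCRQ, COX7A2 and ATP5MJ rose in all 19 alternatives, and 18 members in every alternative that kept all libraries. The share of all genes that kept their calls in this way was not counted, so whether the members were more stable than other genes is not known. The cause of the changes between settings was not tested.

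Estimates near 0 changed sign. SDHB ranged from -0.01 (without ruxolitinib replicate 2) to 0.08 over the omissions of 1 library. SDHD was -0.05 without batch 2, and -0.01 (without control replicate 2) to 0.13 without 1 library. UQCRFS1 was -0.01 without batch 2, and -0.01 (without ruxolitinib replicate 2) to 0.08 without 1 library. ATP5MC2 was -0.03 with library totals alone or without ruxolitinib replicate 2, -0.08 without batch 2, and -0.05 (without control replicate 2) to 0.05 without 1 library. ATP5MF-PTCD1 was 0.58 without batch 2, -0.46 to 0.25 (without control replicate 2) without 1 library and 0.15 without ruxolitinib replicate 2. Per complex, the members higher under the block were 1 of the complex I core, 9 accessory subunits, 0 assembly factors, 3 of complex III, 3 of complex IV and 2 of complex V. What depth limits was not tested, and no setting varied it.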
